A study of Mus musculus with 4 samples.

Results

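Translation initiation factors were examined in 4 RNA-seq libraries of E18.5 fetal oocytes. The comparison asks whether the RNA of fetal oocytes differs between lean and obese mothers. The members were the protein-coding genes on an autosome or on X whose GENCODE symbol begins with Eif and a digit from 1 to 6, which gave 54 of the 55401 gene identifiers in the files. There were 5 eIF1 genes, 14 eIF2 genes, 14 eIF3 genes, 16 eIF4 genes, 4 eIF5 genes and 1 eIF6 gene. The samples came from ICR mothers fed a normal diet (ND, 2 samples) or a high-fat diet (HFD, 2 samples) for 4 months from weaning and then mated with males on ND. Female germ cells positive for the surface antigen SSEA-1 were sorted from fetal ovaries, pooled over fetuses and turned into cDNA with SMART-Seq2, which copies polyadenylated transcripts from few cells. The labels call the cells primordial germ cells, and the series text calls them fetal oocytes. Nothing beyond a replicate number in the labels ties the pools to separate mothers, so p-values measure only the spread between these samples.

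Initiation factors bring the small ribosomal subunit, the initiator tRNA and the mRNA together at a start codon. eIF2 carries the initiator tRNA as a complex with GTP, eIF3 is a large scaffold on the small subunit, and the eIF4 group binds the cap of the mRNA and unwinds its leader. eIF1 and eIF1A guard the choice of start codon, eIF5 and eIF5B close the process, and every cell that makes protein uses these factors. Growing oocytes store mRNA for later use, and control of initiation is one of the ways in which that stored RNA is released.

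The libraries held 8223255 and 7815015 counted reads in ND replicates 1 and 2, and 6456825 and 5723605 in HFD replicates 1 and 2. Values are given as CPM, counts scaled by the total of their library, and 3 counts were worth 0.365, 0.384, 0.465 and 0.524 CPM in that order. Without molecular identifiers, such limits speak to counting error alone. A gene was taken as above background where it exceeded 3 counts and the 99th percentile of 1135 olfactory receptor genes in reads per kilobase, which was 7.44 to 12.5 reads per kilobase. Of 15 germ cell markers, 13, 13, 12 and 11 were above background in ND replicates 1 and 2 and HFD replicates 1 and 2, and their summed level was 2245 and 4160 CPM in ND and 6409 and 5666 CPM in HFD. Dazl, a germ cell RNA-binding protein, had 1733, 3770, 453 and 8.56 CPM in the same order, and Sycp1, a synaptonemal complex protein, had 4.38 and 6.14 CPM in ND and 1400 and 1394 CPM in HFD. Both HFD values were above both ND values for 7 of the 15 germ cell markers (46.7%, against 13.9% of all genes tested). They were below for 3 (20%, against 13.4%). Of 9 stroma markers 6, 4, 3 and 6 were above background, with sums of 2843 and 69.0 CPM in ND and 2222 and 7700 CPM in HFD. The 9 pregranulosa markers summed to 31.0 and 409 CPM in ND and 19.4 and 1158 CPM in HFD, with 1, 3, 0 and 2 above background. Sums over 6 endothelial markers were 23.7 and 70.9 CPM in ND and 701 and 34.8 CPM in HFD, with 0, 1, 2 and 1 above background. The 7 blood markers reached 1973 CPM in ND replicate 1 and at most 11.5 CPM elsewhere, with 3, 1, 0 and 1 above background, and 6 macrophage markers reached at most 40.0 CPM, with 0, 1, 0 and 2 above background. No defining marker of germ cells, stroma, pregranulosa or endothelium was at 0 in any library, while Hba-a1, Hba-a2, Hbb-bs, Hbb-bt, Hbb-y and the macrophage marker C1qa were at 0 in at least 1. The part of these cells in the results below was not tested, and in pooled RNA fewer cells of a type cannot be told apart from less RNA per cell.

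In each library a larger share of initiation factors than of all protein-coding genes was above background. Members were also more often at 50 CPM or more, though in none of them did this hold for all 4 libraries. Above background were 35 and 37 of 54 members in ND replicates 1 and 2 and 22 and 23 in HFD replicates 1 and 2, or 64.8%, 68.5%, 40.7% and 42.6%. Among 21897 protein-coding genes the same shares were 24.9%, 22.1%, 13.3% and 15.2%. Members at 50 CPM or more numbered 15, 10, 16 and 6 in the 4 libraries. That level was reached in 3 libraries by 6 members (11.1%), in 2 by 8 (14.8%), in 1 by 13 (24.1%), in none by 27 (50%) and in all 4 by 0. Of all protein-coding genes 1% reached it in 3 libraries, 3.03% in 2, 10.9% in 1, 84.7% in none and 0.448% in all 4. The members that were above background in every library were Eif1b, Eif2b4, Eif3c, Eif3f, Eif3g, Eif3h, Eif3k, Eif4g2, Eif5 and Eif5a. Members took 1.09%, 0.563%, 1.03% and 0.678% of all counts in ND replicates 1 and 2 and HFD replicates 1 and 2.

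**Figure D1:**
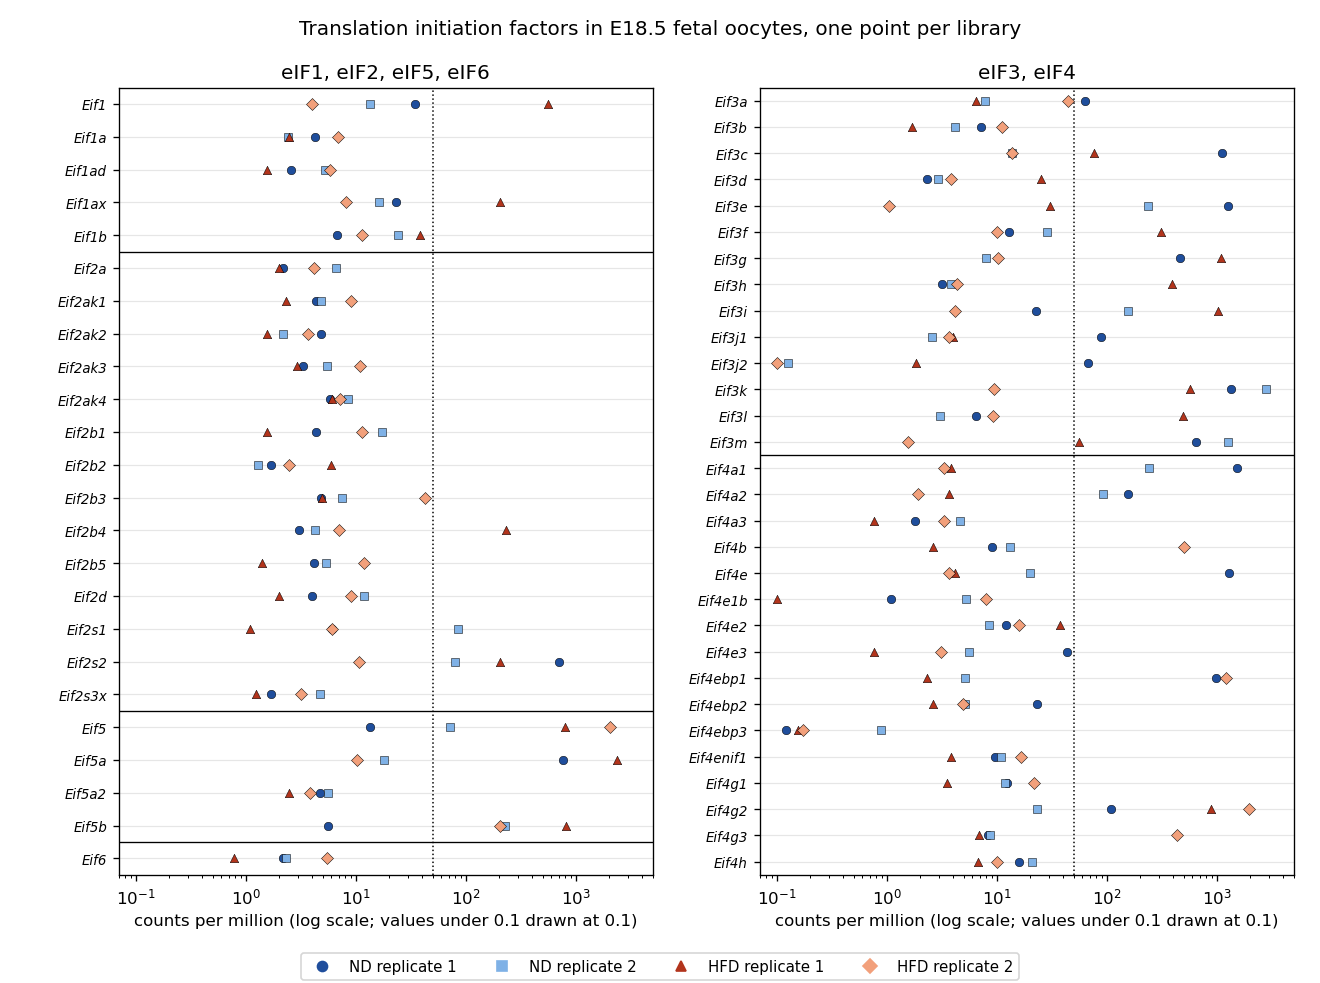
CPM of each of the 54 initiation factor genes in each library, on a log scale. Circles and squares are ND replicates 1 and 2, triangles and diamonds are HFD replicates 1 and 2, and the dotted line marks 50 CPM. Of the 54 genes, 27 lie left of the line in all 4 libraries, 13 reach it in 1 library and 8 in 2. The points of 1 diet are often far apart.

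The comparison of the diets covered 19335 genes, of which 53 were members. Eif4ebp3 did not pass the filter on low counts. By edgeR's quasi-likelihood test with Benjamini-Hochberg adjustment, 0 members and 0 of all genes (0%) passed an adjusted p under 0.05 with a fold change over 1.5, and the smallest adjusted p was 0.406. At an unadjusted p under 0.05 there were 5 members (9.43%), against 11.2% of all genes tested. All 5 were lower in HFD, where 6.41% of all genes were, and they were Eif2s1, Eif4a1, Eif4a2, Eif4e and Eif4e3. The Wald test of DESeq2, which the study's methods name, was run on all genes and called 8 members higher and 8 lower in HFD at the same limits, which is 15.1% each against 6.72% higher and 5.79% lower among the genes tested with edgeR. The members called higher were Eif1, Eif2b4, Eif3h, Eif3l, Eif4b, Eif4g2, Eif4g3 and Eif5, and those called lower were Eif2s1, Eif3e, Eif3j2, Eif3m, Eif4a1, Eif4a2, Eif4e and Eif4e3. For 16 members DESeq2 gave no adjusted p. Over all genes it gave one to 5601, of which it called 1360 higher and 1179 lower. The shares of 6.72% and 5.79% thus include many genes that could not be called, and the larger shares of members cannot be read as an excess. The same holds wherever these 2 shares stand beside a group of members or another gene list below. Run on the filtered genes, DESeq2 called 11 members, not all of them among those called on all genes. It no longer called Eif1, Eif3e, Eif3j2, Eif3m, Eif4b and Eif4g3. With limma-voom 0 members were called and 2 had an unadjusted p under 0.05. On the CPM scale the HFD values were both higher than the ND values for 8 members (15.1%), against 13.9% of all genes, and both lower for 10 members (18.9%), against 13.4%. With TMM-normalized CPM these counts were 4 (7.55%) and 11 (20.8%), against 16.1% and 17.8% of all genes.

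By fitted fold change 23 members were higher and 30 lower in HFD, with a median log2 fold change of -0.25 against 0.03 over all genes. Scaling by library size alone moved the median of all genes to 0.21 and that of the members to 0.18, and then 29 of 53 members (54.7%) were higher in place of 43.4%. The gap between the 2 libraries of a diet exceeded the gap between the diets for 42 of 53 members (79.2%), against 85.3% of all genes. Over the 53 members Pearson's r of log2 CPM was 0.52 between the ND libraries and 0.23 between the HFD libraries. Across diets it was 0.37 and 0.43 with HFD replicate 1 and 0.00 and 0.16 with HFD replicate 2, each for ND replicates 1 and 2. These values describe genes within libraries that differ in depth, and genes are not independent replicates.

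**Figure D2:**
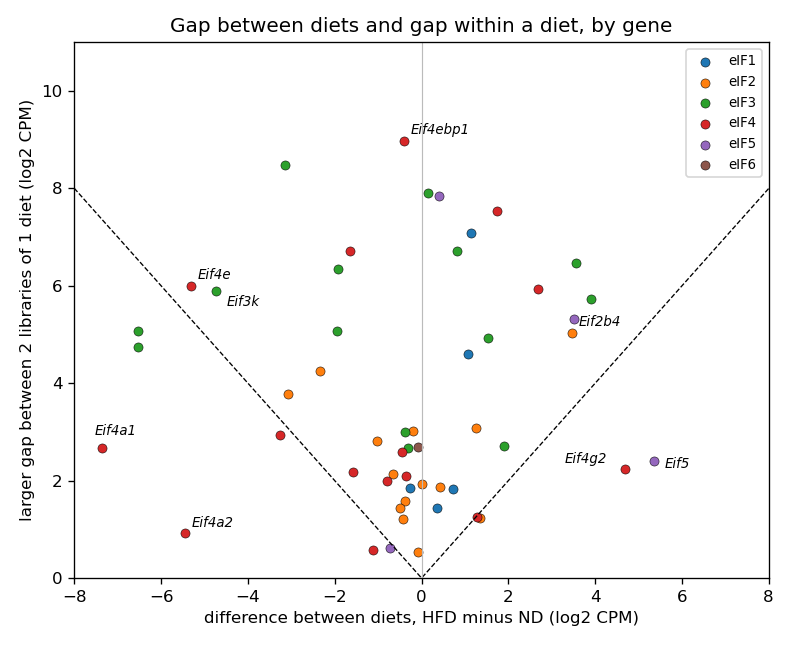
For each of the 53 members tested, the difference between diets (mean log2 CPM of HFD minus that of ND) against the larger of the gaps between the 2 libraries of a diet. Points above the dashed lines, 42 of 53, moved more between replicates than between diets, and Eif4a1, Eif4a2, Eif5 and Eif4g2 lie well below them.

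Of the 5 eIF4F genes, Eif4a1, Eif4a2 and Eif4e (60%) had lower values in both HFD libraries than in both ND libraries. Of all genes tested 13.4% did. eIF4F is the cap-binding complex of the cap-binding protein eIF4E, the RNA helicase eIF4A and the scaffold eIF4G. The promoters of the 3 eIF4F genes that were low in both HFD libraries are shown, with that of Eif5, which was high in both. They are the 250 bases before the RefSeq start nearest to the GENCODE gene start on GRCm38.p6, written 5′ to 3′ on the gene's strand, and capitals mark CACGTG, the E-box bound by MYC and USF proteins, which reads the same on both strands.
Eif4a1, chr11:69672424-69672673, minus strand: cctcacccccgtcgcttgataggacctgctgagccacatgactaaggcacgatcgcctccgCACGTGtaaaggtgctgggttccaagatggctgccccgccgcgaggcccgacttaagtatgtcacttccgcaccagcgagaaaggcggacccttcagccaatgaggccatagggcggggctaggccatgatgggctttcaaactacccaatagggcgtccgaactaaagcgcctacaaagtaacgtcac
Eif4a2, chr16:23107218-23107467, plus strand: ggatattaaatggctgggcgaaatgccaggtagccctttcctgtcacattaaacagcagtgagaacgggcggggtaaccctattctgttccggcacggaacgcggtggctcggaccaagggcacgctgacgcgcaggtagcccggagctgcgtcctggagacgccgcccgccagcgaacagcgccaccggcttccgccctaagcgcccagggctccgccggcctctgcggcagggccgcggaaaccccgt
Eif4e, chr3:138525941-138526190, plus strand: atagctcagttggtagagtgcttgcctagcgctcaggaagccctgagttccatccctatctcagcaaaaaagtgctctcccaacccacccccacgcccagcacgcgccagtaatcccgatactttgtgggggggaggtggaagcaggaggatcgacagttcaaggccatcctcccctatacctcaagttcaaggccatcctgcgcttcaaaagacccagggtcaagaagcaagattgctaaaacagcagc
Eif5, chr12:111537851-111538100, plus strand: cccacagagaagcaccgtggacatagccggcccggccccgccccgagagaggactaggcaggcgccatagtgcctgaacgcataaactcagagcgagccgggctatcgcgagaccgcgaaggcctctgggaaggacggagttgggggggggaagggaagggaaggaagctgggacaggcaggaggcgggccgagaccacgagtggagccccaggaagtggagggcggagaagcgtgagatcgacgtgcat
The Eif4a1 window held CACGTG with its first base 189 bases before the start, and these letters were not in the other windows shown. RefSeq windows of 300 bases, from 250 before to 50 after the start, were found for 42 of the 54 members, and CACGTG was in 8 of them (19.0%), against 7.15% of all 32851 windows. Those members were Eif1b, Eif3a, Eif3f, Eif3k, Eif4a1, Eif4g1, Eif4h and Eif5a2. CCGGAAG, a core bound by ETS factors, was searched on both strands and was in 14 of the 42 member windows (33.3%), against 8.86% of all windows. None of the 4 genes shown above held it. For members only the window nearest to the GENCODE gene start was used, while the 32851 windows were not reduced in this way. The shares of CACGTG and of CCGGAAG are therefore compared over unlike sets.

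Eif4a1 (ENSMUSG00000059796, chromosome 11, 69666936 to 69672423) encodes the main eIF4A helicase. Its counts were 12607 and 1884 in ND and 25 and 19 in HFD, or 1533, 241, 3.87 and 3.32 CPM. Both HFD libraries were far below both ND libraries and below the background limit, while the ND libraries differed from each other 6.36-fold. The log2 fold change was -7.82 (SE 2.39, unadjusted p = 0.0184, adjusted p = 0.406 by edgeR's quasi-likelihood test), and DESeq2 gave an adjusted p of 3.08e-07.

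Eif4a2, the paralog of Eif4a1, had 157 and 93.2 CPM in ND and 3.72 and 1.92 CPM in HFD. Here the replicates lay close together, with a ratio of 1.69 between the ND libraries and 1.93 between the HFD libraries, and the diets did not overlap. The log2 fold change was -5.26 (SE 1.54, unadjusted p = 0.0149, adjusted p = 0.406, edgeR). This gene hosts small nucleolar RNAs in the annotation, and Snora81 shared 3.33% of its exon bases. Eif4a3, a relative that serves the exon junction complex rather than initiation, stayed between 0.774 and 4.61 CPM in the 4 libraries.

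Eif4e encodes the cap-binding protein. Its counts were 10553 and 156 in ND and 27 and 21 in HFD, which is 1283, 19.96, 4.18 and 3.67 CPM. Both HFD values were below both ND values, and most of the ND mean came from ND replicate 1, so that the log2 fold change of -7.24 (SE 2.74, unadjusted p = 0.0403, edgeR) became -2.38 without that library. Eif4e3, an atypical cap-binding relative, had 43.8 and 5.63 CPM in ND and 0.774 and 3.14 CPM in HFD (log2 fold change -3.91, SE 1.19, unadjusted p = 0.0165). It shares 14.8% of its exon bases on the same strand with Gm20696, and reads there cannot be told apart. The other relatives were Eif4e2, a translational repressor at the cap, with 12.2 and 8.45 CPM in ND and 37.8 and 15.9 CPM in HFD, and Eif4e1b, an oocyte form, with 1.09 and 5.25 CPM in ND and 0 and 8.04 CPM in HFD.

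The eIF4G scaffold genes had other patterns than Eif4a1, Eif4a2 and Eif4e. Eif4g1, the main scaffold, had 12.4 and 11.9 CPM in ND and 3.56 and 21.8 CPM in HFD, so the HFD libraries lay on both sides of the ND libraries (log2 fold change -0.33 with TMM and 0.07 with library size alone). Eif4g3, its paralog, had 8.39 and 8.70 CPM in ND, 6.97 CPM in HFD replicate 1 and 434 CPM in HFD replicate 2. Only HFD replicate 2 was high, and without it the log2 fold change of 4.10 (SE 1.92, unadjusted p = 0.0796, edgeR) became 0.20.

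Eif4g2 encodes DAP5, a scaffold that lacks the eIF4E-binding part and serves cap-independent initiation. It had 110 and 23.4 CPM in ND and 885 and 1953 CPM in HFD. Both HFD libraries were above both ND libraries, and the gene was above background in all 4. The log2 fold change was 4.27 (SE 2.09, unadjusted p = 0.092, adjusted p = 0.418, edgeR), and DESeq2 called it with an adjusted p of 0.00261. Leaving out 1 library at a time gave 3.52 to 5.62.

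Among the helpers and repressors of eIF4F, Eif4b and Eif4ebp1 were high in some libraries and low in others, and Eif4h and Eif4enif1 had no library that stood far apart. Eif4b, which stimulates the helicase, had 9.12 and 13.3 CPM in ND, 2.63 CPM in HFD replicate 1 and 500.4 CPM in HFD replicate 2. Eif4h, a related helper, was lower in both HFD libraries, at 16.1 and 20.9 CPM in ND and 6.81 and 10.1 CPM in HFD (log2 fold change -1.19, SE 0.68, unadjusted p = 0.131, edgeR). Eif4ebp1, a repressor that sequesters eIF4E until mTOR phosphorylates it, had 977 CPM in ND replicate 1, 5.12 CPM in ND replicate 2, 2.32 CPM in HFD replicate 1 and 1211 CPM in HFD replicate 2. Each diet thus held 1 high and 1 low library, and its log2 fold change was -0.25 (SE 2.94) with TMM and 0.31 with library size alone. Eif4ebp2 was at 23.2 and 5.12 CPM in ND and 2.63 and 4.89 CPM in HFD, and Eif4ebp3 at 1, 7, 1 and 1 counts. Eif4enif1, which carries eIF4E between nucleus and cytoplasm, ranged from 3.87 to 16.8 CPM with overlapping diets.

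Of the 15 eIF4 genes tested, 4 (26.7%) were lower at an unadjusted p under 0.05, against 6.41% of all genes, and 11 did not pass it. The median log2 fold change of the group was -0.34. The summed level of the group was 4198 and 478 CPM in ND and 965 and 4191 CPM in HFD, or 2338 ± 2630 CPM against 2578 ± 2281 CPM (SD, n = 2 each). The sums overlapped. Eif4a1 held 36.5% and 50.4% of the group's reads in ND replicates 1 and 2, and Eif4g2 held 91.7% and 46.6% in HFD replicates 1 and 2. With 2 samples against 2, an exact permutation test cannot give p below 0.333, so no test of a single sum is given.

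**Figure D3:**
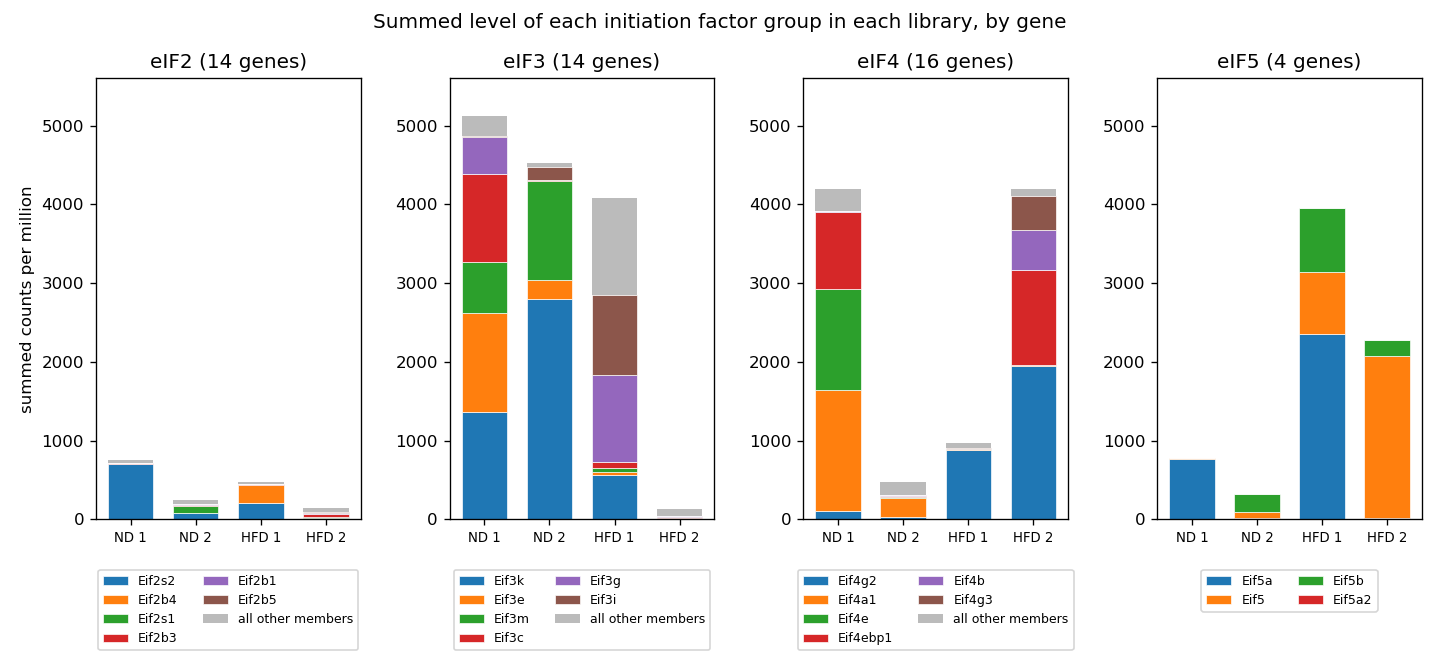
Summed CPM of the eIF2, eIF3, eIF4 and eIF5 genes in each of the 4 libraries, with the 6 genes of highest CPM in each group in color and the other genes in gray. HFD replicate 2 holds 127 CPM of eIF3 reads against 4085 to 5126 CPM in the other libraries, and the eIF4 sums of ND replicate 1 and HFD replicate 2 are alike in height, share a large part from Eif4ebp1 and differ in most of the rest.

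The eIF3 genes made up the largest sum in both ND libraries and in HFD replicate 1, but not in HFD replicate 2. Their summed level was 5126 and 4525 CPM in ND and 4085 and 127 CPM in HFD. Of the 14 genes, 8 and 4 were at 50 CPM or more in ND replicates 1 and 2, 8 in HFD replicate 1 and 0 in HFD replicate 2. The median log2 fold change was -0.53. By edgeR 0 of the 14 passed an unadjusted p under 0.05, against 11.2% of all genes. DESeq2 called 2 higher (14.3%) and 3 lower (21.4%), against 6.72% and 5.79% of the genes tested with edgeR. The log2 ratio of the sums, HFD over ND, was -1.20, and it was -5.24 without HFD replicate 1 and -0.24 without HFD replicate 2.

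Different eIF3 subunits were abundant in different libraries. Eif3k, a small peripheral subunit, had 1359 and 2801 CPM in ND and 568 and 9.43 CPM in HFD, and was lower in both HFD libraries than in both ND libraries. Eif3m and Eif3e, which belong to the scaffold shared in design with the proteasome lid, had the same order of diets. Eif3m was at 643 and 1254 CPM in ND and 55.8 and 1.57 CPM in HFD (log2 fold change -4.60, SE 2.66, unadjusted p = 0.14, edgeR). Eif3e was at 1264 and 237 CPM in ND and 30.5 and 1.05 CPM in HFD (log2 fold change -5.07, SE 2.72, unadjusted p = 0.117). DESeq2 on all genes called both lower, with adjusted p of 0.00879 and 0.00457, and DESeq2 on the filtered genes called neither, with 0.0862 and 0.0662. With single libraries left out the log2 fold changes ranged from -9.96 to -3.61 (Eif3m) and from -10.14 to -3.53 (Eif3e), the lowest of both without HFD replicate 1.

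Other subunits were abundant in HFD replicate 1 and not in HFD replicate 2. Eif3h, a subunit with a role in choosing mRNAs, had 3.16 and 3.84 CPM in ND, 393 CPM in HFD replicate 1 and 4.37 CPM in HFD replicate 2. Eif3l, the partner of Eif3k, had 6.45 and 3.07 CPM in ND and 494 and 9.26 CPM in HFD. DESeq2 called both higher in HFD with adjusted p of 0.000916 and 0.00076, and in both genes HFD replicate 2 was close to the ND libraries and no longer above them with TMM-normalized CPM. Without HFD replicate 1 the log2 fold change of Eif3h went from 6.30 to -0.41 and that of Eif3l from 6.21 to 0.25. Eif3f, another scaffold subunit, was likewise high in HFD replicate 1, with 311 CPM against 13.0 and 28.8 CPM in ND and 10.1 CPM in HFD replicate 2.

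Eif3g, Eif3c, Eif3i, Eif3a and Eif3b had overlapping diets. Eif3g, an RNA-binding subunit, had 466 and 7.93 CPM in ND and 1095 and 10.3 CPM in HFD, so that each diet again held 1 high and 1 low library. Eif3c, part of the core that touches eIF1, had 1120.4 and 13.7 CPM in ND and 77.0 and 13.8 CPM in HFD, and Eif3i, a subunit built on a propeller fold, had 22.6, 157, 1021 and 4.19 CPM in the same order. Eif3a, the largest subunit, had 63.1 and 7.81 CPM in ND and 6.50 and 44.6 CPM in HFD, and Eif3b, its core partner, stayed between 1.70 and 11.2 CPM. Eif3d, which can bind the cap of some mRNAs, had 25.6 CPM in HFD replicate 1 and 2.31 to 3.84 CPM elsewhere, so that both HFD values were above both ND values, though not with TMM-normalized CPM. Its antisense gene Gm17638 covers 43.3% of its exon bases, and the strand setting of the counting is not given in the sources used here. The loosely bound subunit eIF3j has paralogous genes with similar sequence, and Eif3j1 (87.9, 2.56, 4.03 and 3.67 CPM) and Eif3j2 (68.2, 0.128, 1.86 and 0 CPM) were both high in ND replicate 1 alone. The 0 in HFD replicate 2 allows up to 0.524 CPM.

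The RNA of the eIF3 subunits differed widely per length of gene. The complex holds its core subunits in equal number as proteins, which RNA levels do not measure. Single subunits also moved far between the libraries of a diet, such as Eif3i with 244-fold between the HFD libraries. Over the 12 core subunits the RNA level ranged in ND replicate 1 from 0.465 CPM per kilobase of exon (Eif3d) to 504 (Eif3k), which is 1083-fold. The ratio was 1753 in ND replicate 2 and 1084 in HFD replicate 1, where Eif3g was highest at 552 CPM per kilobase and Eif3b lowest at 0.509. In HFD replicate 2 it was 33.3, from 0.156 (Eif3e) to 5.20 (Eif3g). Medians of the 12 subunits were 6.67, 3.95, 64.7 and 3.03 CPM per kilobase in ND replicates 1 and 2 and HFD replicates 1 and 2.

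**Figure D4:**
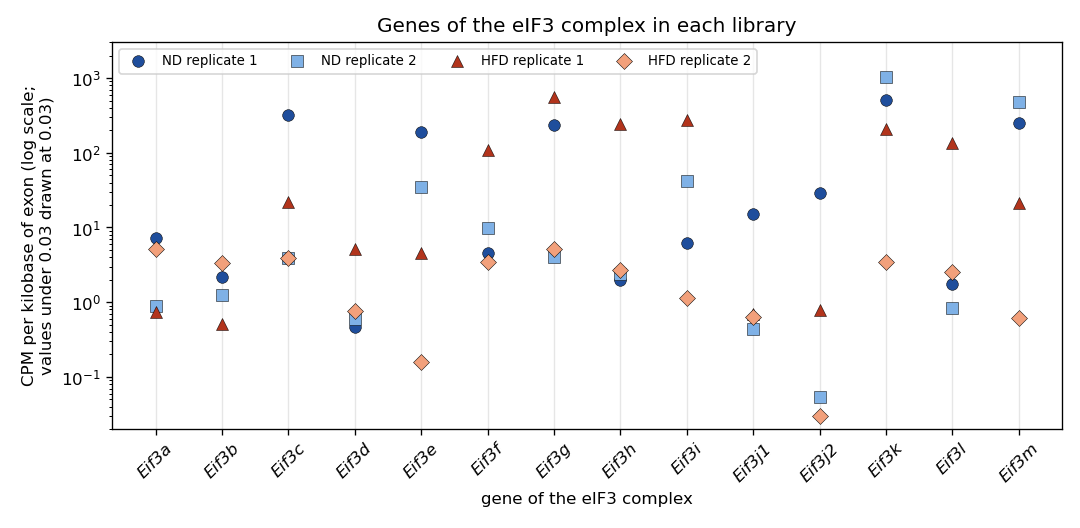
Level of each of the 14 eIF3 genes per kilobase of exon, on a log scale, in each library. HFD replicate 2 stays at or below 5.20 CPM per kilobase for all 14 genes, whereas in the other libraries some subunits pass 100 and others stay below 1.

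The eIF2 genes had the lowest sums of the 3 main groups in ND replicate 1, ND replicate 2 and HFD replicate 1, at 748 and 244 CPM in ND and 468 and 140 CPM in HFD. The means were 496 ± 356 and 304 ± 233 CPM (SD, n = 2 each), so that the diets overlapped. The median log2 fold change was -0.36, and 1 of the 14 genes, Eif2s1, passed an unadjusted p under 0.05 (7.14%, against 11.2% of all genes).

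The core eIF2 complex has the subunits alpha (Eif2s1), beta (Eif2s2) and gamma (Eif2s3x). Eif2s1, whose product is phosphorylated under stress, had 6.08 and 84.6 CPM in ND and 1.08 and 6.12 CPM in HFD (50, 661, 7 and 35 counts). Only ND replicate 2 was high on this scale, where ND replicate 1 and HFD replicate 2 were alike, and with TMM-normalized CPM both HFD values were below both ND values. The log2 fold change was -4.07 (SE 1.58, unadjusted p = 0.0425, adjusted p = 0.406, edgeR), and -1.17 without ND replicate 2. Eif2s2 had 697 and 79.8 CPM in ND and 204 and 10.7 CPM in HFD, with overlapping diets and a log2 fold change of -1.36 (SE 2.23). Eif2s3x stayed between 1.24 and 4.73 CPM. Per kilobase of exon Eif2s2 was the highest of the 3 in ND replicate 1 (103), HFD replicate 1 (30.2) and HFD replicate 2 (1.58), and Eif2s1 in ND replicate 2 (17.1).

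eIF2B is the exchange factor that recharges eIF2 with GTP. Its epsilon and delta subunits are encoded by Eif2b5 and Eif2b4. Eif2b4 had 3.04 and 4.22 CPM in ND, 231 CPM in HFD replicate 1 and 6.99 CPM in HFD replicate 2. Both HFD values were above both ND values, by far more in HFD replicate 1, and the log2 fold change of 5.49 (SE 2.25, unadjusted p = 0.0523, edgeR) became 0.21 without that library. Eif2b3 was high in HFD replicate 2 alone, at 42.8 CPM against 4.86 to 7.55 CPM. Eif2b1, Eif2b2 and Eif2b5 stayed between 1.28 and 17.3 CPM, and Eif2b2 was higher in both HFD libraries (5.89 and 2.45 CPM) than in ND (1.70 and 1.28 CPM), with 10 to 38 counts, though not with TMM-normalized CPM.

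The kinases that phosphorylate eIF2 alpha (Eif2ak1, Eif2ak2, Eif2ak3 and Eif2ak4, known as HRI, PKR, PERK and GCN2) were above background in no library and lay between 1.55 and 11 CPM, with 10 to 66 counts. None of the 4 had an unadjusted p under 0.05, against 11.2% of all genes. Eif2a and Eif2d, which can deliver tRNA without eIF2, lay between 2.01 and 11.8 CPM.

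Among the factors of start codon choice and subunit joining, Eif5 separated the diets. eIF5 triggers the hydrolysis of GTP on eIF2 at the start codon. Eif5 (chromosome 12, 111538016 to 111546752) had 111 and 558 counts in ND and 5128 and 11788 counts in HFD, or 13.5, 71.4, 794 and 2059.5 CPM. Both HFD libraries were above both ND libraries, and the larger gap between replicates was 5.29-fold in ND. The log2 fold change was 4.82 (SE 2.18, unadjusted p = 0.0742, adjusted p = 0.406, edgeR) and ranged from 3.98 to 6.50 when single libraries were dropped, and DESeq2 gave an adjusted p of 0.00123.

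Eif5b, the GTPase of subunit joining, had 5.59 and 227 CPM in ND and 806 and 205 CPM in HFD, so that ND replicate 1 stood apart. It shares 16.8% of its exon bases with Rev1 on the opposite strand. Eif5a, now known for elongation and for its hypusine residue, had 761 and 18.0 CPM in ND and 2351 and 10.1 CPM in HFD, again 1 high and 1 low library in each diet. Its paralog Eif5a2 was lower in both HFD libraries, with 4.74 and 5.63 CPM in ND and 2.48 and 3.84 CPM in HFD. The eIF5 genes summed to 784 and 322 CPM in ND and 3953 and 2278 CPM in HFD, or 553 ± 327 and 3116 ± 1185 CPM (SD, n = 2 each). These sums did not overlap, and Eif5a held 59.5% of the reads in HFD replicate 1 where Eif5 held 90.4% in HFD replicate 2.

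Of the 5 eIF1 genes, Eif1 and Eif1ax reached 50 CPM, both in HFD replicate 1 alone. Eif1 had 34.2 and 13.6 CPM in ND, 559 CPM in HFD replicate 1 and 4.02 CPM in HFD replicate 2, and Eif1ax, the X-linked eIF1A gene, had 23.3, 16.4, 202 and 8.21 CPM. The 2 HFD libraries thus lay above and below the ND libraries in both genes. The autosomal Eif1a stayed between 2.43 and 6.81 CPM, Eif1ad between 1.55 and 5.77 CPM and Eif1b, a paralog of Eif1, between 6.69 and 38.3 CPM. Eif6, which keeps the large subunit from joining early, lay between 0.774 and 5.42 CPM.

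Partners of the factors were read beside them. Of 16 initiation partners, 0 were called by edgeR and 2 (12.5%, against 11.2% of all genes) had an unadjusted p under 0.05, both lower in HFD. DESeq2 called 2 higher and 2 lower, or 12.5% each, against 6.72% and 5.79% of the genes tested with edgeR. Paip2, an inhibitor of the poly(A)-binding protein, had 290 and 120 CPM in ND and 11.6 and 4.02 CPM in HFD, and Larp4, a binder of poly(A) RNA, had 1064 and 12.5 CPM in ND and 3.72 and 5.24 CPM in HFD. The poly(A)-binding protein gene Pabpc1, the partner of eIF4G, had 476 and 891 CPM in ND and 947 and 237 CPM in HFD, above 50 CPM in every library.

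Of 10 genes of elongation and termination, 0 had an unadjusted p under 0.05 by edgeR, against 11.2% of all genes. DESeq2 called 3 higher (30%) and 1 lower (10%), against 6.72% and 5.79% of the genes tested with edgeR. Those called higher each had 1 high library, with 2184 CPM of Eef2 and 726 CPM of Eef2k in HFD replicate 1 and 629 CPM of Etf1 in HFD replicate 2, and at most 18.0 CPM in the other libraries. Eef1d, called lower, had 4027 CPM in ND replicate 2 and at most 28.2 CPM elsewhere. Eef1a1, the main elongation factor, had 3496 and 4717 CPM in ND and 887 and 63.2 CPM in HFD.

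Of 10 genes of the response to phosphorylated eIF2, 7 were tested. Of these 1 (14.3%, against 11.2% of all genes) had an unadjusted p under 0.05, lower in HFD. It was Ppp1r15a, the phosphatase subunit GADD34 that acts on eIF2 alpha, with 234 and 26 counts in ND and 3 and 4 counts in HFD (unadjusted p = 0.00486, edgeR). DESeq2 called 0 higher and 2 lower (28.6%), against 6.72% and 5.79% of the genes tested with edgeR. Atf4, a transcription factor translated under that response, had 1381 CPM in ND replicate 1 and 2.01 to 6.64 CPM elsewhere. Of 10 genes of the mTOR pathway that acts on eIF4E-binding proteins, 1 (10%, against 11.2% of all genes) had an unadjusted p under 0.05, lower in HFD. DESeq2 called 1 higher (10%) and 2 lower (20%), against the same 6.72% and 5.79%. Rheb, the GTPase that activates mTOR, had 582 and 26.5 CPM in ND and 4.03 and 9.61 CPM in HFD. Tsc1, an inhibitor of Rheb, had 3.65 and 5.63 CPM in ND and 135 and 12.4 CPM in HFD, and DESeq2 called it higher. Rps6kb1, a kinase downstream of mTOR and called lower, had 1052 CPM in ND replicate 2 and at most 3.89 CPM elsewhere.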

How the data were processed

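RNA-seq counts of 4 libraries, 2 ND and 2 HFD by their labels, were used. Raw counts per Ensembl gene were deposited by the authors, who had used Trim Galore, HISAT2 on mm10 and featureCounts. The annotation release, strand setting and treatment of reads with several alignments are not given in the sources used here. GENCODE M21 (GRCm38) supplied gene names and exons and lacked 260 identifiers. Promoters are from RefSeq.

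Genes kept by filterByExpr were tested with edgeR 4.0.16 (quasi-likelihood, TMM, Benjamini-Hochberg over all genes) in R 4.3.3. DESeq2 1.42.0 and limma 3.58.1 served as alternatives, with other scalings and filters, a replicate block and each library left out. The functions were tested on simulated data. CPM used library totals, log2 CPM added 0.5 to each count, and the SE of a log2 fold change is its size over the square root of F. Named genes were members with an unadjusted p under 0.05, above background in all 4 libraries, called by DESeq2 or at or under 3 counts in both libraries of a diet, the core eIF2 and eIF4F subunits, and the 3 members of highest CPM per kilobase in each of the eIF2, eIF3 and eIF4 groups. The other members are given by range or chosen after their values were seen. The members and gene lists were chosen with earlier results of these data known.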

Additional observations from a re-analysis of the deposited data

How the results depend on the processing

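Over all genes, edgeR called 0 with TMM, RLE or library size scaling, with other filters, with no fold change minimum, with the replicate block and with any library left out, and limma-voom called 0. DESeq2 called 2539 genes on all rows and 2102 on the filtered genes, and edgeR's legacy fit called 34. Members called were 16 and 11 with these DESeq2 fits and 0 with the legacy fit. The number of members at an unadjusted p under 0.05, 5 in the report and all lower in HFD, depended on the setting. It was 9 without a filter on low counts (8.23% of all genes tested there), of which 7 were lower. With DESeq2 on all and on filtered genes it was 18 and 17 (6.49% and 18.7%), of which 9 and 9 were lower. Limma-voom gave 2 (3.88%), of which 1 was lower, and edgeR's legacy fit gave 4 (6.23%), of which 2 were lower. Library size scaling gave 6 (8.25%), 4 of them lower, and the replicate block gave 3 (7.66%), all lower. Members that passed this limit were thus not all lower in every setting. The labels do not say whether libraries with the same replicate number were prepared together. The correlation of the deviations of same-numbered libraries was 0.00655 over 19335 genes, which cannot settle this with 2 libraries per diet.

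The log2 ratio of the eIF3 sums ranged from -5.24 (without HFD replicate 1) to -0.24 and that of the eIF4 sums from -1.28 to 2.43 (without ND replicate 1), and the eIF2 ratio of -0.71 became 0.32 without ND replicate 1. Of 26 named members with a fit, 24 kept their direction in every setting that used all 4 libraries. The exceptions were Eif4ebp1 (0.31) and Eif4g1 (0.072) with library size alone. With each library left out in turn, 14 kept their direction where fitted, and of these Eif3j2 had no fit without ND replicate 1. The others ranged from -3.27 to 5.07 (Eif1), -1.20 to 2.26 (Eif1b), -5.87 to 0.80 (Eif2s2), -1.44 to 0.15 (Eif2s3x), -6.03 to 2.01 (Eif3c), -1.79 to 4.37 (Eif3f), -5.19 to 6.52 (Eif3g), -0.41 to 7.30 (Eif3h), -1.60 to 4.74 (Eif4b), -7.16 to 6.10 (Eif4ebp1), -1.27 to 0.12 (Eif4g1) and -5.93 to 6.44 (Eif5a) on the log2 scale. A lone library of a diet was assumed to vary like the other diet. With at least 10 counts in every sample, 6 named members could not be fitted. The cause of these changes was not tested. With 5723605 to 8223255 counts a library, levels under 0.365 to 0.524 CPM rest on fewer than 3 counts.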

Other observations

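Pseudogenes of the initiation factors are not among the 54 members, and those given here were chosen after their values were seen. Eif3s6-ps2, a copy of Eif3e, had 536 and 24 counts in ND and 3 counts in each HFD library, beside 10393, 1854, 197 and 6 counts of Eif3e. Eif4a-ps4 had 338 and 56 counts in ND and 6 and 0 counts in HFD, beside 12607, 1884, 25 and 19 counts of Eif4a1. How reads with several alignments were assigned is not given in the sources used here, so that counts of such pairs are uncertain. Eif2s3x-ps1 had 12, 6, 4 and 21 counts and Eif2s3x 14, 37, 8 and 18. The counts were close in ND replicate 1 and HFD replicate 2, and the pseudogene was lower in ND replicate 2 and HFD replicate 1. They are not adjusted for the length of the genes.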
